A study of Mus musculus with 9 samples.

Results

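The genes described here are 46 of the machinery of DNA replication and its control. They cover the factors that mark, license and fire origins, the helicase, the clamp and its loader, and the polymerases. Also covered are single-strand binding proteins and the enzymes that finish and copy marks onto new strands. The fork genes Clspn and Timeless and the transcription factor gene E2f1 are included, whereas some further subunits, such as Pold3, are not. The 46 were chosen by symbol from the GENCODE M21 annotation and matched to the Ensembl identifiers of the deposited count table. All 46 were found among 47937 identifiers, and all 46 passed the filter on low counts that left 12536 genes for testing. RNA was sequenced from CD4+ T cells of C57BL/6 mouse spleen, purified on magnetic beads and enriched for CD62L, a surface marker of naive and resting T cells. TEPP-46 cells were incubated for 15 min with TEPP-46 and then activated on plate-bound antibodies against CD3 and CD28. The compound activates PKM2, a glycolytic enzyme of dividing cells that is made from the gene Pkm. Control cells received the solvent DMSO in place of TEPP-46 and the same antibodies. Resting cells were not activated, and the labels do not say whether they were cultured. TEPP-46 was used at 50 to 100 µM, with no concentration stated per library, and the sources used here do not state for how long cells were activated. Each group has 3 libraries, numbered 1, 4 and 5. The labels do not tie the libraries to separate mice. The p-values therefore measure only how far these libraries spread, which may be technical.

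DNA replication starts at origins bound by the origin recognition complex, onto which CDC6 and CDT1 load the ring-shaped MCM helicase before S phase. At the start of S phase the CDC7-DBF4 kinase and cyclin-dependent kinases recruit CDC45 and the GINS complex, which turn the loaded ring into a working helicase. Resting T cells are out of the cell cycle, and most of these genes are classical targets of E2F transcription factors, which are held inactive until growth signals drive a cell towards S phase. The comparisons ask how far activation raised the transcripts of this machinery and whether it did so in cells that had received the PKM2 activator.

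Because many of the members are known E2F targets, their promoters were searched for E2F letters. RefSeq promoters on GRCm38.p6, each 300 bases long from 250 before the start site, were found for 38 of the 46 members. The letters TTTCCCGC, TTTGGCGC, TTTGCCGC or TTTCGCGC stood on either strand in at least 1 promoter of 17 of those 38 genes (44.7%), against 5% of 9013 tested genes and 2.6% of 27025 genes in the table. Matches can overlap where one variant and the reverse complement of another share bases. The letters CCAAT, searched on both strands as a common promoter element, stood in 60.5% of the members and 42.7% of tested genes. Shown here are the 250 bases before the start site of 4 members with E2F letters, namely the helicase genes Mcm5 and Mcm6, the helicase loader gene Cdc6 and the origin recognition gene Orc1. Rpa1, which held none of the letters, follows as a contrast. Among the members without them, log2 fold changes of control over resting ran from -0.59 for Rpa1 to 3.74 for Mcm10. The start sites are those of RefSeq. The GENCODE M21 gene Cdc6 starts at 98907801 and Orc1 at 108579423. All printed bases of Cdc6 and the last ones of Orc1 therefore lie inside the annotated genes. E2F matches are in capitals.
Mcm5 (chr8:75109259-75109508, plus strand): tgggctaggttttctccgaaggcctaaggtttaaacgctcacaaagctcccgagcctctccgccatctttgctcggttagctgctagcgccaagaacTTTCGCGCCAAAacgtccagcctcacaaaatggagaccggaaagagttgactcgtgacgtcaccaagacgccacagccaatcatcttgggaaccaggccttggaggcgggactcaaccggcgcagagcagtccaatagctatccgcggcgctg
Mcm6 (chr1:128359706-128359955, minus strand): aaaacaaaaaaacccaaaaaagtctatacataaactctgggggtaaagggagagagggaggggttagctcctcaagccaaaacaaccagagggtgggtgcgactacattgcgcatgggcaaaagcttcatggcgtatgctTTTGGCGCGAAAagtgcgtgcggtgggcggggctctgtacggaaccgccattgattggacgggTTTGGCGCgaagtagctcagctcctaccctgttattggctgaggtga
Cdc6 (chr11:98907901-98908150, plus strand): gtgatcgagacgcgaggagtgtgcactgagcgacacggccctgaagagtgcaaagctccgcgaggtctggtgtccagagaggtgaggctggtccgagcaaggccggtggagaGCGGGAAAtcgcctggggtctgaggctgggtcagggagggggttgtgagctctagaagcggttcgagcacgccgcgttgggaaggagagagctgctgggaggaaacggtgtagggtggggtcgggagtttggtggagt
Orc1 (chr4:108579204-108579453, plus strand): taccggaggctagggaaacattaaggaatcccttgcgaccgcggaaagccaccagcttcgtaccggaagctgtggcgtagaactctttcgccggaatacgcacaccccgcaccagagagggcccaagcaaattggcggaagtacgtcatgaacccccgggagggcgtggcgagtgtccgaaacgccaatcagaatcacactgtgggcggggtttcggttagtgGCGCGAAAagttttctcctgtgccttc
Rpa1 (chr11:75348384-75348633, minus strand): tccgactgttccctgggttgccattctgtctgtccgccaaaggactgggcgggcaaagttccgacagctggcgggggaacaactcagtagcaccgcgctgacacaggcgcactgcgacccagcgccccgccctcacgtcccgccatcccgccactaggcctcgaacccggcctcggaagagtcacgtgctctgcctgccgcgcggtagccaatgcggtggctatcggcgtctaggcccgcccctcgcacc
A match is a description of letters and not of a bound site. The median log2 fold change of TEPP-46 over control was -1.22 for the 17 members with the letters and -0.93 for the 21 without them, and that of control over resting was 1.51 and 1.06. Both sets ranged widely, from -1.97 to -0.27 and from -2.10 to -0.11 for TEPP-46 over control. For control over resting they ranged from 0.19 to 3.73 and from -0.59 to 3.74.

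The libraries differed in ways that bear on every result below. Total counts were 2397304 to 3900023 in TEPP-46, 3773438 to 4043226 in control and 3903124 to 5030643 in resting libraries. TEPP-46 replicates 4 and 5 stood apart from TEPP-46 replicate 1, with 12220 and 12770 CPM (counts scaled to 1000000 per library) of Malat1, a nuclear RNA, against 2523 CPM in replicate 1, 2058 to 4104 CPM in control and 4355 to 8349 CPM in resting libraries. Of 13 T cell identity genes, all were detected in every library, at a summed 10990 to 13800 CPM in TEPP-46, 6958 to 8809 in control and 7593 to 12170 in resting libraries. In TEPP-46 over control 4 of the 13 rose and 0 fell, against 9.72% and 6.43% of all tested genes. Markers of other spleen cells were present unevenly. The 8 granulocyte precursor markers summed to 1.65, 183 and 4.19 CPM in TEPP-46 replicates 1, 4 and 5, 0 to 0.977 CPM in control and 109.6 to 187 CPM in resting libraries. S100a8 and Camp had 0 counts in all TEPP-46 and control libraries. Of the 5 granulocyte precursor markers tested, 2 rose in TEPP-46 over control, against 9.72% of all tested genes. The 15 B cell markers summed to 1294, 2991 and 1149 CPM, against 638.5 to 876 CPM in control and 3450 to 4452 CPM in resting libraries. Of the 14 B cell markers tested, 8 rose in TEPP-46 over control, against 9.72% of all tested genes, with a median log2 fold change of 3.19. The 6 plasma cell markers summed to 227 to 569, 654 to 1056 and 776 to 3280 CPM in the TEPP-46, control and resting groups, most of it Xbp1 in TEPP-46 and control libraries. Jchain had 1.10 to 2.26, 0 to 0.733 and 287 to 957 CPM and Igha had 0 to 0.967, 0 to 0.244 and 253 to 2033 CPM in those groups, so these antibody genes were near 0 in the TEPP-46 and control libraries. The 11 red cell and platelet markers summed to 22.2, 292 and 90.5 CPM in the TEPP-46 libraries, 8.37 to 12.5 CPM in control and 33.1 to 257 CPM in resting libraries. Hba-a1, Hba-a2 and Hbb-bs were at 0 in TEPP-46 and control libraries. Of the 4 markers of this list tested, 2 rose in TEPP-46 over control, against 9.72% of all tested genes. Myeloid (10 genes), NK cell (7) and CD8 T cell (2) markers summed to 138 to 163, 61.8 to 88.6 and 3.87 to 11.2 CPM in TEPP-46 libraries, 97.4 to 111, 76.6 to 132 and 8.03 to 10.04 CPM in control libraries and 102 to 151.5, 29.0 to 110.5 and 9.01 to 22.1 CPM in resting libraries. Of the 6 myeloid, 4 NK cell and 1 CD8 T cell markers tested, 2, 1 and 0 rose in TEPP-46 over control. So did 0 of the 6 plasma cell markers, against 9.72% of all tested genes. The part of these cells and of the Malat1 difference in the results below was not tested. In bulk RNA, fewer cells of a type and less RNA per cell cannot be told apart.

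In the TEPP-46 group most replication genes were high in replicate 1 and low in replicates 4 and 5, whereas most were high in all control libraries and low in all resting libraries. Summed over the 46 genes, the level was 5923, 2260 and 2099 CPM in TEPP-46 replicates 1, 4 and 5, against 6246, 6169 and 6602 CPM in control and 3294, 3027 and 2989 CPM in resting replicates 1, 4 and 5. By this sum replicate 1 lay just below the controls, while replicates 4 and 5 lay below every resting library. Gene by gene, replicate 1 was below all controls for 23 members, against 38.3% of tested genes. It was within their range for 9 members and above all of them for 14. In TEPP-46 replicate 1 the level was higher than in replicates 4 and 5 for 46 of 46 members, an order found in 38.1% of all tested genes. Replicates 4 and 5 were both below all 3 resting libraries for 20 members (43.5%), against 22.3% of tested genes. The median SD of log2 CPM within the TEPP-46 group was 1.14 over the members and 0.519 over all tested genes, and within the control group 0.119 and 0.200. Summed levels averaged 3427 ± 2163 CPM in TEPP-46, 6339 ± 231 CPM in control and 3103 ± 166 CPM in resting libraries (SD, n = 3 each).

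**Figure D1:**
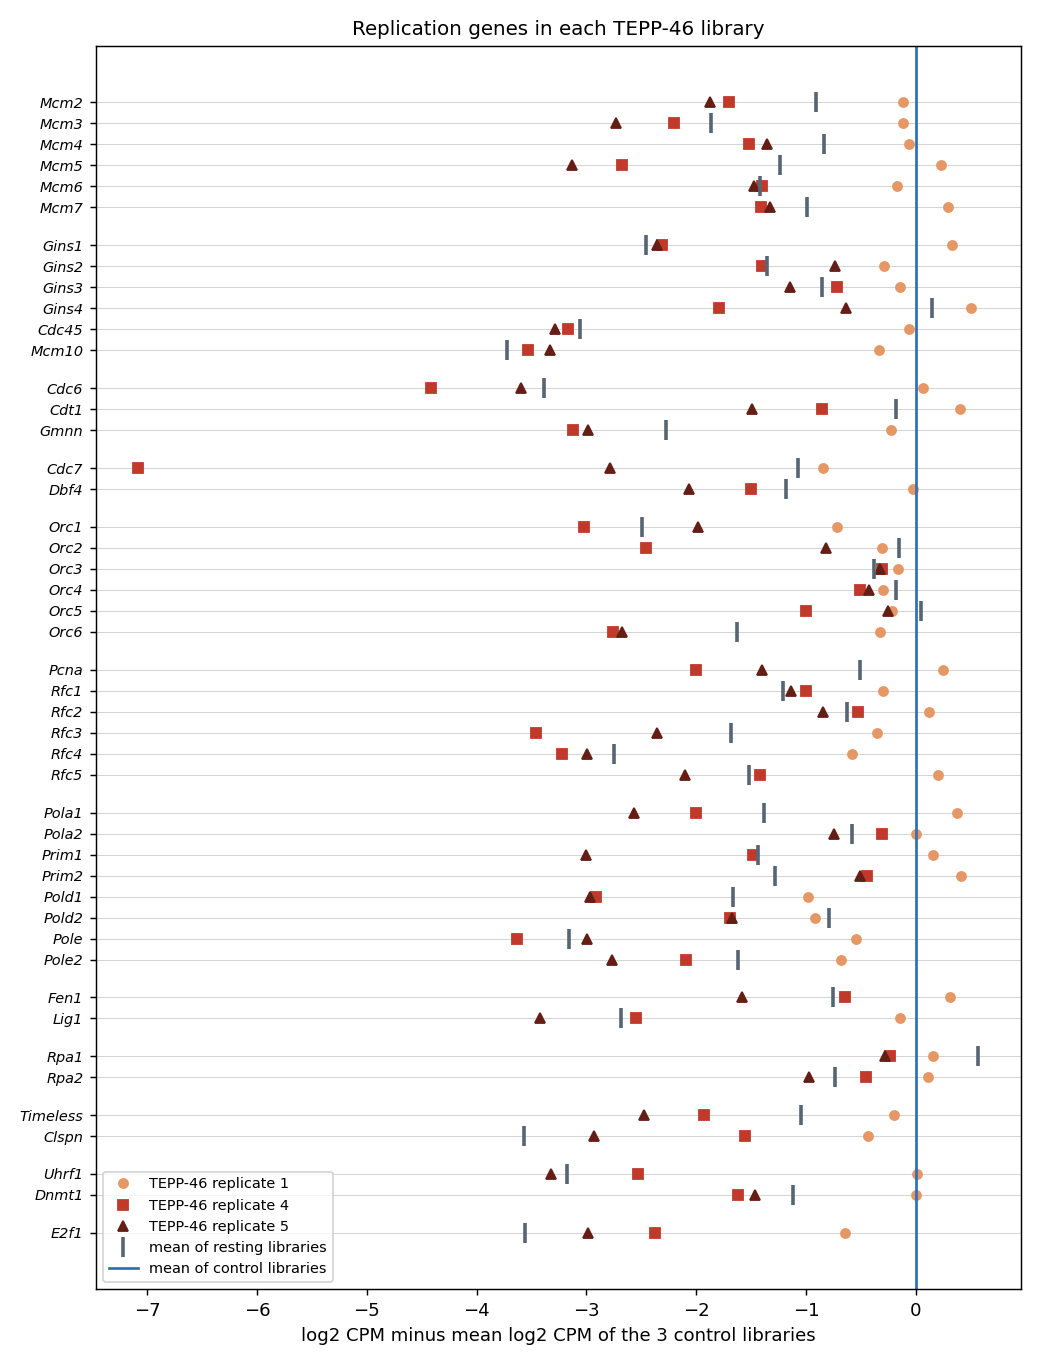
Each row is a member, grouped by role from the helicase at the top to E2f1 at the bottom. The horizontal axis is log2 CPM (prior count of 2) minus the mean of the 3 control libraries (line at 0) for each TEPP-46 library, and the grey tick is the mean of the resting libraries. TEPP-46 replicate 1 (circles) lies right of replicates 4 (squares) and 5 (triangles) in every row, and Cdc7 in replicate 4, with 0 counts, lies farthest left at a position set by the prior count.

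Few members passed the test of TEPP-46 against control. By the quasi-likelihood test of edgeR, with p-values adjusted over all tested genes after Benjamini and Hochberg, 2 of 46 members fell and 0 rose, against 6.43% and 9.72% of all tested genes. At an unadjusted p below 0.05 there were 21. The share of all tested genes at that unadjusted threshold was not computed, here or in the other fits. All 46 log2 fold changes were negative with all libraries, although without TEPP-46 replicate 4 or 5 those of Gins4 or Prim2 came out at 0.03 to 0.05. The median was -0.92, against 0.04 over all tested genes. All 3 TEPP-46 libraries lay below all 3 control libraries for 23 members, against 20.1% of all tested genes. Without TEPP-46 replicate 1, 39 of 46 members fell relative to control, against 16.4% of the genes tested in that fit, and the log2 fold changes had a median of -1.80 and a range of -4.04 to -0.27. That library was singled out because these same members were high in it. The p-values without it, here and for single genes below, are therefore descriptive and no separate support. Without TEPP-46 replicate 4 there were 2 falls, of Pold1 and Pold2, against 5.67% of genes, and the median was -0.67. Without replicate 5 there were 0, against 1.67% of genes (4 members at an unadjusted p below 0.05), and the median was -0.64. Leaving out control replicates 1, 4 and 5 gave 0, 1 and 0 falls (13, 12 and 8 members at an unadjusted p below 0.05), against 1.73%, 1.35% and 1.06% of the genes tested. The count also rested on the method, with 10 falls in DESeq2 (against 11.1% of all genes tested), 16 in limma-voom (8.91%), 17 without the filter on low counts (4.81%) and 5 with scaling to total counts alone (9.43%). That scaling also changed the split over all tested genes, in which rises made up 43.8% of calls in place of 60.2%. It set the median of all genes at -0.09 in place of 0.04 for TEPP-46 over control and at 0.07 in place of -0.04 for control over resting.

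In control over resting cells 21 of 46 members rose and 0 fell by the same test, against 15.5% and 15.8% of all tested genes (31.2% in either direction). The median log2 fold change was 1.28 over the members and -0.04 over all tested genes. All 3 control libraries lay above all 3 resting libraries for 40 members and below them for 1, which held for 29.2% and 30% of tested genes. Between TEPP-46 and resting cells 2 members rose and 0 fell, against 6.37% and 3.92% of tested genes, with a median of 0.29. Without TEPP-46 replicate 1 the TEPP-46 cells had 1 rise and 11 falls relative to resting cells, against 8.33% and 6.29% of the genes tested in that fit, and a median of -0.43, so the sign of the median turned with that library. That omission turned 21 of the 46 log2 fold changes of TEPP-46 over resting to below 0, and 2 of these passed the test, Mcm5 and Orc6. Each group stands in 2 of the 3 comparisons, so the comparisons share libraries and are not independent.

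**Figure D2:**
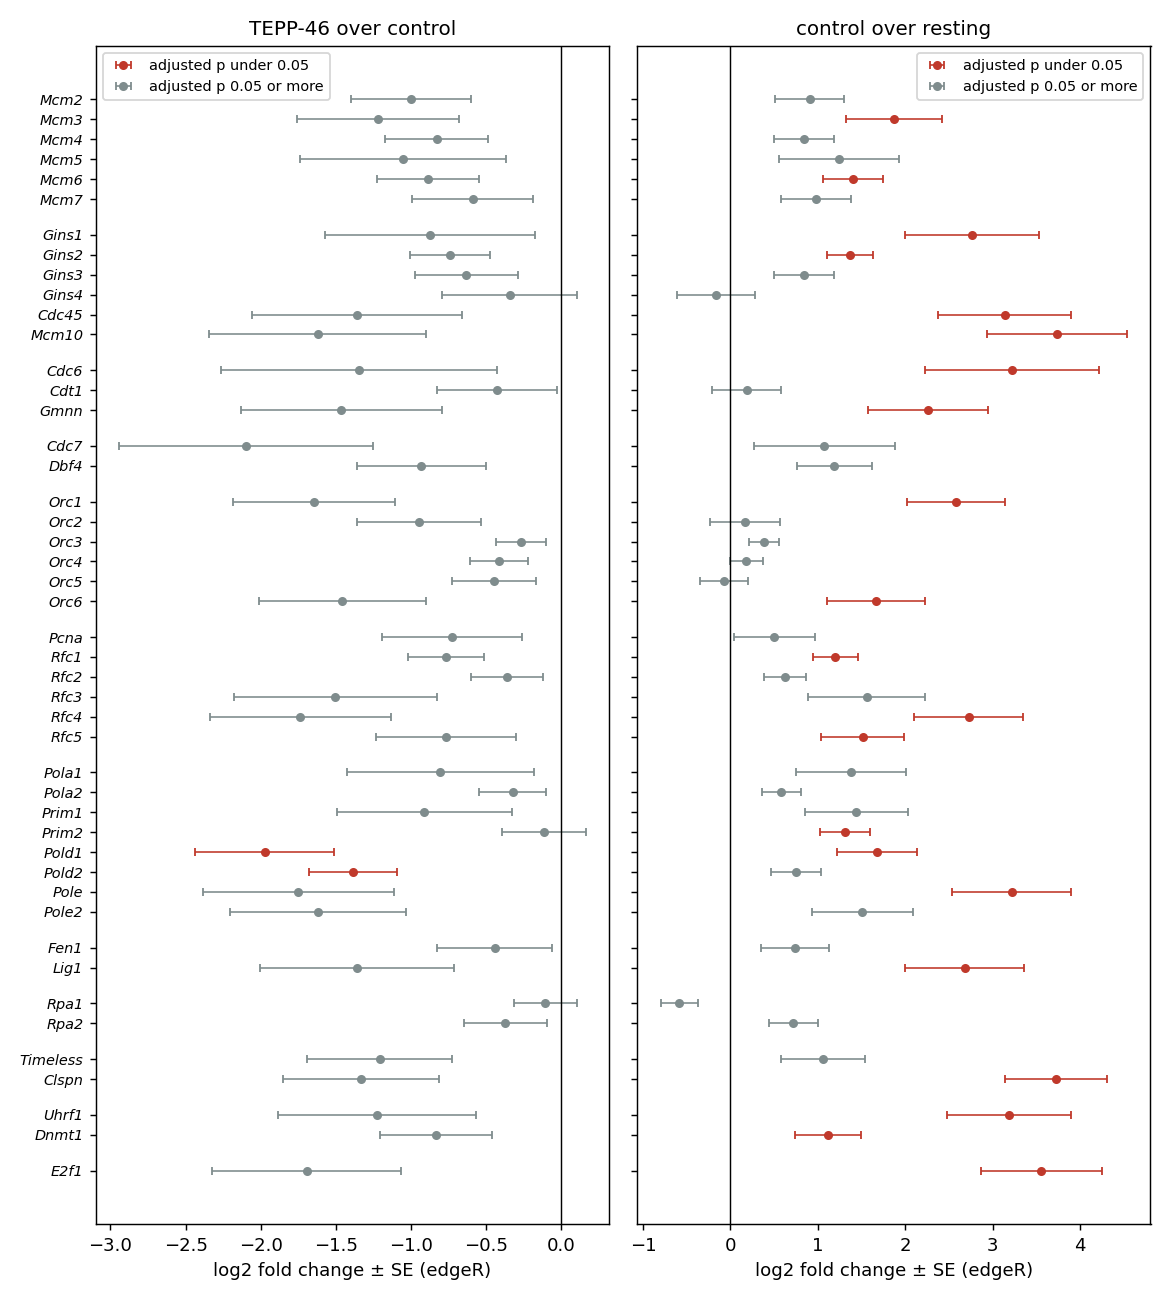
Log2 fold changes ± SE from edgeR for the 46 members in the same order, for TEPP-46 over control (left) and control over resting (right). Red points have an adjusted p below 0.05: 2 members on the left, Pold1 and Pold2, and 21 on the right.

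The 6 MCM helicase genes encode the subunits of the ring that unwinds DNA. Mcm6 had 591, 251 and 238 CPM in TEPP-46 replicates 1, 4 and 5, against 612, 654 and 734 CPM in control and 310.1, 243 and 205 CPM in resting libraries. It rose in control over resting cells (log2 fold change 1.40 ± 0.34, edgeR adjusted p = 0.0123). All 3 TEPP-46 libraries of Mcm6 lay below the controls, replicate 1 narrowly and replicates 4 and 5 within the resting range (log2 fold change -0.89 ± 0.34, edgeR adjusted p = 0.0962). Mcm2 had 209, 69.4 and 61.5 CPM in TEPP-46 replicates 1, 4 and 5, against 221, 220.4 and 239 CPM in control and 107, 129 and 127 CPM in resting libraries, and its TEPP-46 libraries were ordered likewise, with replicates 4 and 5 below all resting libraries. Mcm4, likewise with TEPP-46 replicates 4 and 5 below all resting libraries, had TEPP-46 replicate 1 within the control range (log2 fold change -0.83 ± 0.34, edgeR adjusted p = 0.120). Mcm3 had 378, 88.6 and 61.2 CPM in TEPP-46 replicates 1, 4 and 5, against 382, 426 and 423 CPM in control and 114, 116 and 105 CPM in resting libraries. Mcm3 rose on activation (log2 fold change 1.87 ± 0.55, edgeR adjusted p = 0.0262), and all its TEPP-46 libraries lay below the controls without passing the test (log2 fold change -1.22 ± 0.54, edgeR adjusted p = 0.140; without TEPP-46 replicate 1 it was -2.46, edgeR adjusted p = 0.000107). Mcm5 (ENSMUSG00000005410.5, GRCm38 chromosome 8, 75109569 to 75128439) had 207, 27.2 and 19.7 CPM in TEPP-46 replicates 1, 4 and 5, against 178, 180.2 and 171 CPM in control and 77.1, 79.7 and 67.0 CPM in resting libraries. TEPP-46 replicate 1 of Mcm5 lay above every control library and replicates 4 and 5 lay below every resting library, so the groups overlapped. The difference between TEPP-46 and control was accordingly uncertain (log2 fold change -1.05 ± 0.69, edgeR adjusted p = 0.300), and without TEPP-46 replicate 1 the log2 fold change of Mcm5 was -2.93 (edgeR adjusted p = 6.73e-05). Without TEPP-46 replicate 4 it was -0.63 (edgeR adjusted p = 0.540) and without replicate 5 -0.58 (edgeR adjusted p = 0.578). For TEPP-46 over resting cells the omission of replicate 1 gave Mcm5 a log2 fold change of -1.69 (edgeR adjusted p = 0.00236), in place of 0.19 with all libraries. Mcm7 had TEPP-46 replicate 1 above every control and replicates 4 and 5 below every resting library (log2 fold change -0.59 ± 0.40, edgeR adjusted p = 0.324). Mcm2, Mcm4, Mcm5 and Mcm7 did not pass the test of control over resting (log2 fold changes of 0.85 to 1.24, edgeR adjusted p of 0.0861 to 0.192), although their libraries did not overlap. They passed when TEPP-46 replicate 1 was left out of the fit (edgeR adjusted p of 0.000527 to 0.00318). That library is in neither of the groups compared but enters the shared estimate of spread.

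The subunits of the ring are needed in equal number, so their levels were set beside each other per kb of exon. In control libraries the order was Mcm6 (131 to 157 CPM per kb), Mcm3 (102 to 114), Mcm4 (80.5 to 102), Mcm7 (48.0 to 53.4), Mcm5 (42.8 to 45.1) and Mcm2 (31.7 to 34.4). The ranges of Mcm3 and Mcm4 touched, and those of the other neighbours were separate. The highest level per kb was 4.22, 7.90 and 10.4 times the lowest in TEPP-46 replicates 1, 4 and 5, against 4.13 to 4.58 times in control and 2.81 to 4.31 times in resting libraries. Mcm5 was the lowest of the 6 per kb in TEPP-46 replicates 4 and 5, at 6.80 and 4.92 CPM per kb, and also in resting replicate 5, at 16.8 CPM per kb. Mcm2 was the lowest in the other 6 libraries. Lengths are those of all annotated exons joined, so a gene with rarely used exons is set too low.

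**Figure D3:**
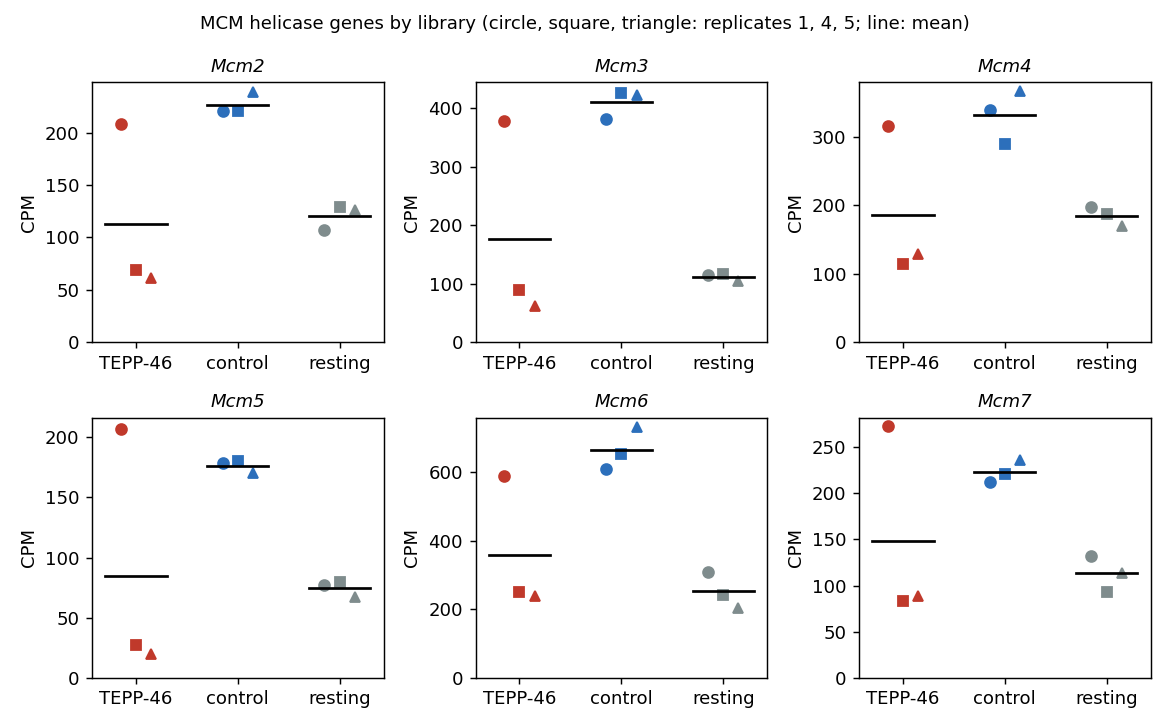
CPM of the 6 MCM helicase genes in each library, with the TEPP-46, control and resting groups from left to right in each panel. Circles, squares and triangles are replicates 1, 4 and 5, and the black line is the mean of the group. In each panel TEPP-46 replicate 1 lies near the control libraries and replicates 4 and 5 lie within or below the range of the resting libraries.

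The factors that turn the loaded ring into a working helicase included the member with the largest fold change on activation, Mcm10. Gins2, a subunit of the GINS complex, had 68.8, 31.8 and 50.6 CPM in TEPP-46 replicates 1, 4 and 5, against 83.8, 83.9 and 85.9 CPM in control and 33.7, 33.7 and 30.8 CPM in resting libraries. Gins2 rose on activation (log2 fold change 1.37 ± 0.27, edgeR adjusted p = 0.00437), and all its TEPP-46 libraries lay below the controls (log2 fold change -0.74 ± 0.26, edgeR adjusted p = 0.0781). Gins2 shares 2758 exon bases with Gse1 on the other strand, and the sources used here do not give the strand setting of the counts. Mcm10, which helps start unwinding, had 57.6, 5.85 and 6.77 CPM in TEPP-46 replicates 1, 4 and 5, against 65.2, 76.5 and 77.8 CPM in control and 3.004, 4.997 and 8.40 CPM in resting libraries. Cdc45, the helicase cofactor, had 61.4, 6.69 and 6.12 CPM in TEPP-46 replicates 1, 4 and 5, against 74.0, 59.0 and 60.5 CPM in control and 6.41, 8.68 and 6.89 CPM in resting libraries. Both Mcm10 (log2 fold change 3.74 ± 0.80, edgeR adjusted p = 0.00677) and Cdc45 (log2 fold change 3.14 ± 0.76, edgeR adjusted p = 0.0114) rose on activation. TEPP-46 replicate 1 of Cdc45 stood inside the control range and replicates 4 and 5 stood within or below the resting range. Neither gene passed the test of TEPP-46 against control (log2 fold change -1.62 ± 0.72, edgeR adjusted p = 0.144 for Mcm10, log2 fold change -1.36 ± 0.70, edgeR adjusted p = 0.198 for Cdc45). With TEPP-46 replicate 1 left out the log2 fold change was -3.53 for Mcm10 (edgeR adjusted p = 0.000358) and -3.34 for Cdc45 (edgeR adjusted p = 0.000107). Gins3 did not pass in any comparison, with a log2 fold change of -0.63 for TEPP-46 over control and 0.84 for control over resting. Gins1 had 48, 4 and 5 counts in TEPP-46 replicates 1, 4 and 5, against 41, 43 and 43 counts in control and 5, 6 and 9 counts in resting libraries, few reads in the libraries with low levels, and rose on activation (log2 fold change 2.76 ± 0.77, edgeR adjusted p = 0.0209). Gins4 had 59.5, 11.7 and 26.7 CPM in TEPP-46 replicates 1, 4 and 5, against 40.3, 44.7 and 40.4 CPM in control and 56.5, 45.2 and 38.6 CPM in resting libraries. Its control and resting libraries overlapped (log2 fold change -0.16 ± 0.44, edgeR adjusted p = 0.809), while TEPP-46 replicate 1 lay above and replicates 4 and 5 below all libraries of both other groups.

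Licensing depends on the loaders CDC6 and CDT1 and on geminin, encoded by Gmnn, which binds CDT1 and blocks a repeat of loading. Gmnn had 46.6, 5.85 and 6.44 CPM in TEPP-46 replicates 1, 4 and 5, against 62.1, 46.4 and 57.0 CPM in control and 16.6, 9.73 and 7.97 CPM in resting libraries. Gmnn rose on activation (log2 fold change 2.26 ± 0.69, edgeR adjusted p = 0.0304), and TEPP-46 replicates 4 and 5 lay below all resting libraries. Cdc6 had 104, 4.18 and 7.73 CPM in TEPP-46 replicates 1, 4 and 5, against 91.6, 97.1 and 111 CPM in control and 3.61, 11.6 and 17.0 CPM in resting libraries. Cdc6 rose on activation (log2 fold change 3.22 ± 0.99, edgeR adjusted p = 0.0327), TEPP-46 replicate 1 stood among the controls, and TEPP-46 replicates 4 and 5 stood within the resting range (log2 fold change -1.35 ± 0.92, edgeR adjusted p = 0.322). When TEPP-46 replicate 1 was left out, the log2 fold change of TEPP-46 over control was -3.16 for Gmnn (edgeR adjusted p = 0.000465) and -4.04 for Cdc6 (edgeR adjusted p = 0.000928). Cdt1 had 68.5, 28.4 and 18.0 CPM in TEPP-46 replicates 1, 4 and 5, against 54.0, 46.6 and 55.0 CPM in control and 48.7, 43.7 and 44.2 CPM in resting libraries. Its control and resting libraries overlapped (log2 fold change 0.19 ± 0.40, edgeR adjusted p = 0.747), and TEPP-46 replicate 1 lay above and replicates 4 and 5 below all of them. The ratio of Cdt1 to Gmnn CPM, which is not corrected for length and so is compared only across libraries, was 1.47, 4.86 and 2.80 in TEPP-46 replicates 1, 4 and 5, against 0.870 to 1.005 in control and 2.93 to 5.54 in resting libraries. TEPP-46 replicates 1 and 5 were between the control and resting ranges and replicate 4 was within the resting range.

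The kinase that fires licensed origins consists of CDC7 and its activator DBF4. Cdc7 had 38.4, 0 and 9.67 CPM in TEPP-46 replicates 1, 4 and 5, against 55.0, 75.8 and 80.6 CPM in control and 25.8, 33.7 and 40.7 CPM in resting libraries. The 0 counts in TEPP-46 replicate 4 allow up to 3 counts, or 1.25 CPM, by counting error alone. All 3 TEPP-46 libraries of Cdc7 lay below the controls, with the most negative fitted fold change of all members but a wide error (log2 fold change -2.10 ± 0.85, edgeR adjusted p = 0.111). Because of the 0, the log2 CPM of TEPP-46 replicate 4 depends on the prior count, whereas the fold change was fitted to counts. Control libraries of Cdc7 lay above the resting libraries without passing the test (log2 fold change 1.08 ± 0.81, edgeR adjusted p = 0.335). Dbf4 had 72.9, 25.9 and 17.4 CPM in TEPP-46 replicates 1, 4 and 5, against 77.7, 72.0 and 73.3 CPM in control and 32.3, 36.3 and 29.1 CPM in resting libraries. TEPP-46 replicate 1 of Dbf4 was within the control range and replicates 4 and 5 were below all resting libraries (log2 fold change -0.93 ± 0.43, edgeR adjusted p = 0.156).

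In the origin recognition complex, which marks origins, 2 of the 6 subunit genes rose on activation, against 15.5% of all tested genes. Orc1, a subunit whose amount is known to vary over the cell cycle, had 12.3, 2.09 and 4.83 CPM in TEPP-46 replicates 1, 4 and 5, against 19.1, 20.6 and 22.3 CPM in control and 4.61, 2.10 and 3.45 CPM in resting libraries and rose on activation (log2 fold change 2.58 ± 0.56, edgeR adjusted p = 0.00683). Orc6 had 49.6, 8.77 and 9.34 CPM in TEPP-46 replicates 1, 4 and 5, against 67.9, 51.9 and 69.0 CPM in control and 21.2, 19.2 and 19.0 CPM in resting libraries and rose on activation too (log2 fold change 1.67 ± 0.56, edgeR adjusted p = 0.0439). Their TEPP-46 libraries all lay below the controls, and with edgeR adjusted p of 0.0609 for Orc1 and 0.0953 for Orc6 neither passed. Without TEPP-46 replicate 1 the log2 fold change of TEPP-46 over control was -2.54 for Orc1 (edgeR adjusted p = 0.00369) and -2.80 for Orc6 (edgeR adjusted p = 0.000154). For TEPP-46 over resting cells the omission gave Orc6 -1.13 (edgeR adjusted p = 0.0216), in place of 0.21. The other subunit genes passed in none of the 3 comparisons. Orc2 had 42.5, 9.19 and 29.6 CPM in TEPP-46 replicates 1, 4 and 5, against 52.3, 47.8 and 58.5 CPM in control and 46.5, 49.2 and 45.9 CPM in resting libraries, with all 3 TEPP-46 libraries below the 6 others and replicate 4 the lowest (log2 fold change -0.95 ± 0.41, edgeR adjusted p = 0.134 against control, log2 fold change -0.78 ± 0.41, edgeR adjusted p = 0.259 against resting). Orc2 shares 1150 exon bases with Nif3l1 on the other strand. Orc4 and Orc5 had log2 fold changes of -0.41 and -0.45 for TEPP-46 over control, with all TEPP-46 libraries below the controls in each. Orc3 had 95.4, 86.1 and 85.1 CPM in TEPP-46 replicates 1, 4 and 5, against 105, 109.7 and 106 CPM in control and 78.7, 85.7 and 81.0 CPM in resting libraries, its TEPP-46 libraries lying close together. Orc3, Orc4 and Orc5 were among the 7 members that did not pass against control even without TEPP-46 replicate 1, with Gins3, Pola2, Prim2 and Rpa1.

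PCNA is the ring-shaped clamp that holds polymerases on DNA, and the RFC complex loads it. Among the loader genes, Rfc1, which encodes the large subunit, rose on activation (log2 fold change 1.20 ± 0.26, edgeR adjusted p = 0.00647). Rfc4 had 86.1, 13.4 and 15.8 CPM in TEPP-46 replicates 1, 4 and 5, against 133, 121 and 135 CPM in control and 12.2, 21.0 and 25.4 CPM in resting libraries and the largest rise of the RFC genes (log2 fold change 2.73 ± 0.63, edgeR adjusted p = 0.00899). Rfc3 did not pass on activation (log2 fold change 1.56 ± 0.67, edgeR adjusted p = 0.101), and Rfc5 rose (log2 fold change 1.52 ± 0.48, edgeR adjusted p = 0.0348). Pcna (ENSMUSG00000027342.14, chromosome 2, 132249162 to 132253314) had 177, 36.8 and 56.4 CPM in TEPP-46 replicates 1, 4 and 5, against 152, 163 and 135 CPM in control and 124, 100.7 and 92.0 CPM in resting libraries. Control libraries of Pcna lay above all resting libraries without passing the test (log2 fold change 0.50 ± 0.46, edgeR adjusted p = 0.431). TEPP-46 replicate 1 of Pcna lay above every control and replicates 4 and 5 lay below every resting library (log2 fold change -0.73 ± 0.46, edgeR adjusted p = 0.290). Without replicate 1 the log2 fold change of Pcna was -1.69 against control (edgeR adjusted p = 0.000984) and -1.18 against resting (edgeR adjusted p = 0.0139). Pcna has 2 annotated processed pseudogenes, Pcna-ps1 and Pcna-ps2, among which the counting could have split its reads. Rfc2 did not pass on activation (log2 fold change 0.63 ± 0.24, edgeR adjusted p = 0.0693), and it shares 952 exon bases with Lat2 on the other strand. For TEPP-46 over control the 5 loader genes ranged from -1.74 for Rfc4 to -0.36 for Rfc2 on the log2 scale, with edgeR adjusted p of 0.0630 to 0.310, so none passed.

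The polymerase genes held the only members that fell with TEPP-46 in the fit of all 9 libraries, 2 of 46, against 6.43% of all tested genes. Pold2, an accessory subunit of DNA polymerase delta, which copies the lagging strand (ENSMUSG00000020471.11, chromosome 11, 5872180 to 5878292), had 83.6, 48.5 and 49.3 CPM in TEPP-46 replicates 1, 4 and 5, against 159, 145 and 172 CPM in control and 62.1, 114 and 108 CPM in resting libraries. Pold1, its catalytic subunit (ENSMUSG00000038644.14, chromosome 7, 44532746 to 44548849), had 183, 47.6 and 45.8 CPM in TEPP-46 replicates 1, 4 and 5, against 334, 355 and 402 CPM in control and 115, 111 and 116 CPM in resting libraries. In both genes TEPP-46 replicate 1 was below the lowest control library by more than the range of the controls, and replicates 4 and 5 were below every resting library. Pold2 fell relative to control (log2 fold change -1.39 ± 0.29, edgeR adjusted p = 0.0136), and so did Pold1 (log2 fold change -1.97 ± 0.46, edgeR adjusted p = 0.0208). Both calls were lost without TEPP-46 replicate 5 or without control replicate 1 or 5, and that of Pold1 also without control replicate 4, with a highest edgeR adjusted p of 0.0632 for Pold2 and 0.0763 for Pold1. In the fit of only the groups compared the call of Pold1 was lost too (edgeR adjusted p = 0.0508). Pold1 also rose on activation (log2 fold change 1.67 ± 0.46, edgeR adjusted p = 0.0200), whereas Pold2 did not pass there (log2 fold change 0.75 ± 0.29, edgeR adjusted p = 0.0696).

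Polymerase epsilon copies the leading strand. Pole2, its second subunit, had 15.4, 5.43 and 3.22 CPM in TEPP-46 replicates 1, 4 and 5, against 24.9, 21.8 and 28.6 CPM in control and 3.61, 13.9 and 9.05 CPM in resting libraries and passed in neither comparison (log2 fold change -1.62 ± 0.59, edgeR adjusted p = 0.0821 against control, log2 fold change 1.51 ± 0.58, edgeR adjusted p = 0.0693 for control over resting). The catalytic subunit gene Pole had 49.9, 5.43 and 8.70 CPM in TEPP-46 replicates 1, 4 and 5, against 68.7, 73.4 and 77.3 CPM in control and 9.01, 8.68 and 5.82 CPM in resting libraries. Pole rose on activation (log2 fold change 3.22 ± 0.68, edgeR adjusted p = 0.00629), and all its TEPP-46 libraries lay below the controls (log2 fold change -1.75 ± 0.63, edgeR adjusted p = 0.0827). The polymerase alpha and primase genes make the RNA-DNA primers. Prim1, Pola2 and Pola1 did not pass on activation (log2 fold changes of 1.44, 0.58 and 1.38) or with TEPP-46 (-0.91, -0.32 and -0.81). Prim2, the large primase subunit, had 56.5, 30.9 and 29.6 CPM in TEPP-46 replicates 1, 4 and 5, against 39.3, 47.3 and 40.7 CPM in control and 17.6, 17.6 and 15.9 CPM in resting libraries. All 6 activated libraries of Prim2 lay above the resting libraries, and it rose both in control cells (log2 fold change 1.31 ± 0.29, edgeR adjusted p = 0.00724) and in TEPP-46 cells (log2 fold change 1.20 ± 0.29, edgeR adjusted p = 0.0288) relative to resting cells. The call in TEPP-46 over resting cells was lost without any one of the control or resting libraries (highest edgeR adjusted p = 0.108). Against control, Prim2 differed little (log2 fold change -0.12 ± 0.28, edgeR adjusted p = 0.793).

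FEN1 trims and LIG1 seals the fragments of the lagging strand. Lig1 had 208, 38.9 and 20.9 CPM in TEPP-46 replicates 1, 4 and 5, against 221, 218 and 252 CPM in control and 45.1, 31.6 and 31.0 CPM in resting libraries. Lig1 rose on activation (log2 fold change 2.68 ± 0.68, edgeR adjusted p = 0.0142), and all its TEPP-46 libraries lay below the controls, replicate 1 narrowly (log2 fold change -1.36 ± 0.65, edgeR adjusted p = 0.166). Fen1 had 238, 122 and 63.8 CPM in TEPP-46 replicates 1, 4 and 5, against 216, 185 and 177 CPM in control and 139, 96.0 and 110.3 CPM in resting libraries and did not pass on activation (log2 fold change 0.74 ± 0.39, edgeR adjusted p = 0.167). Fen1 shares 1909 exon bases with the antisense gene Gm10143. Replication protein A coats single-stranded DNA in replication and repair. Rpa2 had log2 fold changes of -0.37 for TEPP-46 over control and 0.72 for control over resting, and passed in neither. Rpa1, the large subunit, had 428, 326 and 316 CPM in TEPP-46 replicates 1, 4 and 5, against 398, 371 and 384 CPM in control and 702, 496 and 533 CPM in resting libraries. It was the only member whose control libraries all lay below the resting libraries, and its TEPP-46 libraries lay below them too, without passing (log2 fold change -0.59 ± 0.21, edgeR adjusted p = 0.0561 for control over resting, log2 fold change -0.69 ± 0.21, edgeR adjusted p = 0.0627 for TEPP-46 over resting).

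Claspin and TIMELESS travel with the fork and link it to the checkpoint kinases. Clspn had 29.6, 13.4 and 4.83 CPM in TEPP-46 replicates 1, 4 and 5, against 36.2, 42.1 and 43.2 CPM in control and 1.80, 3.95 and 3.45 CPM in resting libraries, with the lowest adjusted p of the members on activation (log2 fold change 3.73 ± 0.59, edgeR adjusted p = 0.00169). All 3 TEPP-46 libraries of Clspn lay between the resting and the control libraries, and it was the other member that rose in TEPP-46 over resting cells (log2 fold change 2.39 ± 0.58, edgeR adjusted p = 0.0300). That call was lost without TEPP-46 replicate 1 or any one control or resting library (highest edgeR adjusted p = 0.0899). Timeless had 70.5, 20.9 and 14.2 CPM in TEPP-46 replicates 1, 4 and 5, against 75.0, 72.4 and 98.7 CPM in control and 35.7, 37.6 and 44.8 CPM in resting libraries and passed in neither comparison (log2 fold change -1.21 ± 0.48, edgeR adjusted p = 0.109 against control, log2 fold change 1.06 ± 0.48, edgeR adjusted p = 0.117 for control over resting). DNMT1 copies DNA methylation onto new strands and UHRF1 brings it there. Dnmt1 had 319.9, 104 and 116 CPM in TEPP-46 replicates 1, 4 and 5, against 312, 319 and 331 CPM in control and 134, 165 and 144 CPM in resting libraries, with TEPP-46 replicate 1 inside the control range and replicates 4 and 5 below all resting libraries. Uhrf1 had 209, 35.5 and 20.3 CPM in TEPP-46 replicates 1, 4 and 5, against 207, 202 and 215 CPM in control and 19.6, 27.9 and 20.9 CPM in resting libraries. Dnmt1 (log2 fold change 1.12 ± 0.38, edgeR adjusted p = 0.0444) and Uhrf1 (log2 fold change 3.19 ± 0.71, edgeR adjusted p = 0.00800) rose on activation. E2f1, a transcription factor of the G1 to S transition, had 23.3, 6.69 and 4.19 CPM in TEPP-46 replicates 1, 4 and 5, against 31.5, 49.0 and 32.1 CPM in control and 1.80, 1.58 and 6.03 CPM in resting libraries and rose on activation (log2 fold change 3.56 ± 0.69, edgeR adjusted p = 0.00435). Its TEPP-46 libraries all lay below the controls, and replicates 1 and 4 lay above the resting libraries (log2 fold change -1.70 ± 0.63, edgeR adjusted p = 0.0882).

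The 21 rises on activation differed in how much they rested on single libraries. In every fit that left out 1 of the 9 libraries, Cdc45, Clspn, E2f1, Gins2, Mcm10, Orc1, Pole, Prim2, Rfc1, Rfc4 and Uhrf1 kept their call, 11 in all (highest edgeR adjusted p = 0.0427). The calls of Cdc6, Dnmt1, Gins1, Mcm3, Orc6 and Rfc5 were lost without any one of the 3 resting or 3 control libraries (highest edgeR adjusted p of 0.0700 to 0.116). That of Gmnn was lost without any of these but resting replicate 1 and that of Pold1 without any but control replicate 1 (highest edgeR adjusted p of 0.0984 and 0.0659). Lig1 lost it without resting replicate 4 or 5 and Mcm6 without resting replicate 5 (highest edgeR adjusted p of 0.0547 and 0.0517). Without resting replicates 1, 4 and 5 the number of members that rose was 14, 12 and 11, against 12.4%, 9.63% and 10.9% of all genes tested. Without control replicates 1, 4 and 5 it was 14, 13 and 13, against 9.97%, 9.59% and 9.46%, so fewer genes passed over the whole table too. Without TEPP-46 replicate 1, 37 rose, against 19.2% of the genes tested in that fit, and Rpa1 fell, and without TEPP-46 replicates 4 and 5 the number that rose was 25 and 26, against 19.9% and 15% of genes. With the TEPP-46 libraries left out of the fit, 40 rose and 1 fell, against 23.9% and 23.3% of the genes tested.

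In a list of 28 further replication factors, 15 rose and 3 fell in control over resting cells, against 15.5% and 15.8% of all tested genes. In TEPP-46 over control cells 1 rose and 4 fell, against 9.72% and 6.43%. The median log2 fold changes of the list were 1.12 and -0.81. For 21 of the 28, TEPP-46 replicate 1 lay above replicates 4 and 5, an order found in 38.1% of all tested genes. Donson, a replication fork factor, was the one that rose (log2 fold change 0.85 ± 0.21, edgeR adjusted p = 0.0241), at 120.3, 122 and 131 CPM in TEPP-46 replicates 1, 4 and 5, against 72.1, 77.0 and 58.7 CPM in control and 158, 108 and 119 CPM in resting libraries. Its TEPP-46 libraries lay above the controls and within the resting range. Topbp1, which helps activate the helicase and the checkpoint kinase ATR, had 87.7, 50.1 and 19.0 CPM in TEPP-46 replicates 1, 4 and 5, against 184, 176 and 164 CPM in control and 46.9, 29.7 and 41.4 CPM in resting libraries (log2 fold change -1.74 ± 0.43, edgeR adjusted p = 0.0251). Rif1, a regulator of replication timing, also fell with TEPP-46 (log2 fold change -0.73 ± 0.20, edgeR adjusted p = 0.0345). Atad5, which unloads PCNA, had 38.7, 9.19 and 7.73 CPM in TEPP-46 replicates 1, 4 and 5, against 71.6, 59.8 and 61.5 CPM in control and 8.01, 10.3 and 9.91 CPM in resting libraries (log2 fold change -1.77 ± 0.51, edgeR adjusted p = 0.0411). Pold3, a further polymerase delta subunit, fell as well (log2 fold change -1.09 ± 0.33, edgeR adjusted p = 0.0463) and is named here because of its call.

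Among 13 genes of chromatin assembly at the fork, 4 rose on activation and 2 fell in TEPP-46 over control cells. Over all tested genes these shares were 15.5% and 6.43%. The 2 that fell were Cdca7 (log2 fold change -2.08 ± 0.42, edgeR adjusted p = 0.0117) and Hells (log2 fold change -2.03 ± 0.42, edgeR adjusted p = 0.0131), which encode partners in a chromatin remodelling complex. Hells had 90.2, 35.5 and 23.8 CPM in TEPP-46 replicates 1, 4 and 5, against 201, 211 and 204 CPM in control and 13.2, 21.0 and 21.5 CPM in resting libraries, with TEPP-46 replicate 1 below the controls and all 3 TEPP-46 libraries above the resting libraries. Of 20 genes of E2F and G1 to S control, 14 rose and 1 fell on activation, against 15.5% and 15.8% of all tested genes. With TEPP-46, 2 of the 20 fell, against 6.43% of all tested genes. They were Rb1, the retinoblastoma gene (log2 fold change -0.97 ± 0.19, edgeR adjusted p = 0.0112), and Cdc25a, a phosphatase that activates cyclin-dependent kinases (log2 fold change -1.06 ± 0.25, edgeR adjusted p = 0.0212). In both the 3 TEPP-46 libraries lay close together, at 70.5, 59.3 and 58.6 CPM for Rb1 and 40.0, 35.5 and 35.1 CPM for Cdc25a, against 114, 129 and 127 CPM and 75.2, 78.6 and 77.8 CPM in control libraries. Of the 8 S phase checkpoint genes tested, 3 rose and 1 fell on activation, against the same 15.5% and 15.8%. Only Atr fell with TEPP-46 (log2 fold change -1.03 ± 0.25, edgeR adjusted p = 0.0227), against 6.43% of all tested genes.

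The proliferation marker Mki67 had 188, 33.4 and 25.5 CPM in TEPP-46 replicates 1, 4 and 5, against 294, 329 and 307 CPM in control and 11.02, 10.8 and 11.4 CPM in resting libraries. Here TEPP-46 replicates 4 and 5 lay above all resting libraries. The 5 mitotic and proliferation genes summed to 1293, 200.1 and 142 CPM in TEPP-46, 1397 to 1746 CPM in control and 56.3 to 95.7 CPM in resting libraries. In TEPP-46 over resting cells 4 of the 5 rose by edgeR (Mki67 with an adjusted p of 0.0219), against 2 of the 46 replication genes and 6.37% of all tested genes. Whether the 2 sets differ in this was not tested. Pkm, the gene of the drug's target, had 4977, 1540 and 2203 CPM in TEPP-46 replicates 1, 4 and 5, against 4188, 5398 and 5008 CPM in control and 993, 1413 and 1305 CPM in resting libraries. All TEPP-46 libraries of Pkm lay above the resting libraries.

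**Figure D4:**
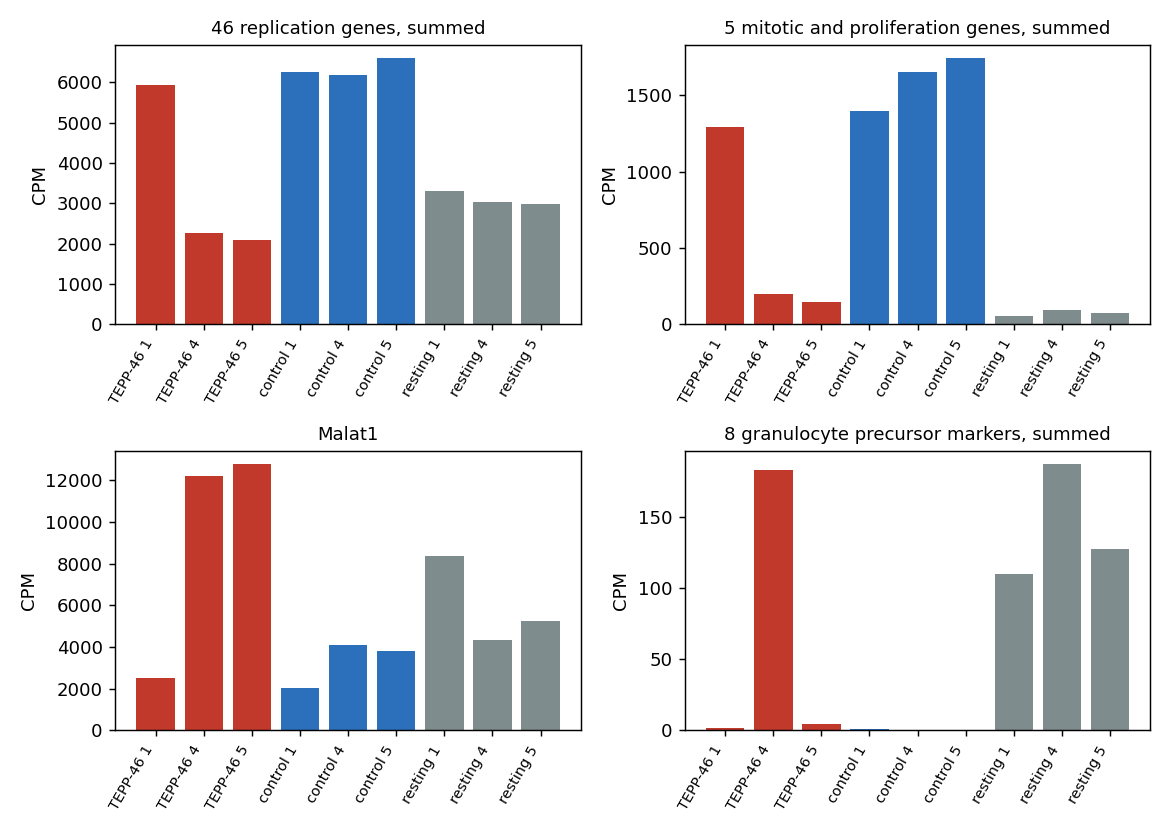
Bars give CPM per library, in the order TEPP-46, control and resting with replicates 1, 4 and 5 in each. Panels show the 46 replication genes summed, 5 mitotic and proliferation genes summed, Malat1, and 8 granulocyte precursor markers summed. The replication sum is 5923 CPM in TEPP-46 replicate 1 and 2260 and 2099 CPM in replicates 4 and 5, the 2 libraries with the most Malat1.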

How the data were processed

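The authors deposited 1 table of raw read counts per Ensembl gene for the 9 libraries. The submitters' processing notes name GRCm38 and DESeq2; the sources used here name no aligner, counter, annotation or strand setting. Libraries were made with a low-input amplification kit, per the labels' protocols, and limits on counts of 0 cover counting error only.

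Symbols came from GENCODE M21. Genes passed a filter on low counts (filterByExpr, minimum count 10, minimum total 15). Counts were scaled by TMM and tested over all 9 libraries with edgeR 4.0.16 in R 4.3.3 (quasi-likelihood, 2-sided, 6 residual degrees of freedom, Benjamini-Hochberg adjustment over 12536 genes, threshold 0.05). CPM used TMM-scaled library sizes, and log2 CPM a prior count of 2. SE was the fold change over the root of F. The fit was tried on simulated data with the same spread in all groups, which does not cover the unequal spread of the groups here. Alternatives were DESeq2 1.42.0, limma-voom (limma 3.58.1), other scalings, no filter, a replicate block, only the groups compared, and each library left out.

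The members and lists were chosen with earlier results of these data known. Within a role, members are given in order of adjusted p for TEPP-46 over control, and from each pathway list up to 4 genes in that order; Pold3 was added, chosen after its values were seen. No label gives a batch. 1 gene of the marker lists is not reported here by itself.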

Additional observations from a re-analysis of the deposited data

How the results depend on the processing

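Counts of members called moved by over 1.5 times under these settings, against 21 (control over resting), 2 (TEPP-46 over control) and 2 (TEPP-46 over resting). With only the groups compared in the fit they were 41, 1 and 0 (6 at an unadjusted p below 0.05 in edgeR for the last). The 1 was a fall, against 4.8% of genes. For TEPP-46 over control the count was 5 with total counts only, 17 with no filter, 10 in DESeq2 and 16 in limma-voom. All of these were falls, against 9.43%, 4.81%, 11.1% and 8.91% of genes. For TEPP-46 over resting 6 rose and 0 fell with no filter, against 4.8% and 2.67% of genes. In DESeq2 3 rose and 1 fell, against 9.63% and 7.04%. In limma-voom 1 rose and 0 fell, against 5% and 3.68%. Over all genes DESeq2 called 3057 for TEPP-46 over control and 2090 for TEPP-46 over resting, and the fit of only the groups compared called 400 for TEPP-46 over resting. With the replicate number as a block, 4 members fell and 0 rose for TEPP-46 over control, against 4.47% and 6.57% of genes. For TEPP-46 over resting that block gave 0 members (3 at an unadjusted p below 0.05 in edgeR) and 705 genes in all. Same-numbered libraries correlated at -0.124 to 0.0893 in their deviations from the group means, and differently numbered libraries at -0.108 to 0.123. With group means of only 3 libraries, these values cannot show whether the numbers pair the libraries. Leaving out 1 library gave 11 to 38, 0 to 39 and 0 to 12 members, and 2316 to 5194, 395 to 4407 and 426 to 1897 genes, in the same order of comparisons. Without TEPP-46 replicate 1, 21 members turned from positive to negative for TEPP-46 over resting, most without a call; the values that reversed with a call, and the median, were -1.69 for Mcm5, -1.13 for Orc6 and -0.43 for the median; the highest values among the fits with 1 library left out were 0.66, 0.59 and 0.60. The cause of these changes was not tested. With 3 libraries a group and 2397304 to 5030643 counts a library, genes with few counts in some libraries (Gins1, Cdc7, E2f1) have wide errors. Members with more counts, such as Mcm5 (± 0.69) and Uhrf1 (± 0.66), also had wide errors for TEPP-46 over control.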
